A study of Mus musculus with 16 samples.

Results

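The peroxisomal beta-oxidation genes described here were *Acox2*, *Acox3*, *Ehhadh*, *Hsd17b4*, *Acaa1a*, *Acaa1b*, *Scp2* and *Abcd3*. They were found by their symbols in the table of gene counts, which gave 8 genes of 55450. All 8 were among the 11675 genes tested, which had a mean level of 1 CPM or more (CPM, counts scaled to the size of the library) over the 16 libraries. The data are bulk RNA-seq of cultured primary hepatocytes. The donors were wild-type mice, which the study's methods describe as young adult males of the C57BL/6J strain. The cells were freed from perfused livers by enzyme digestion and enriched by slow centrifugation, so that other liver cells can be carried along. They were cultured overnight in serum-containing medium with insulin, transferrin and selenium. Untreated cultures were compared with cultures given sodium itaconate (10 mM), a defined mixture of lipids at a 10-fold dilution, or both. The lipid mixture held arachidonic, linoleic, myristic, oleic, palmitic and stearic acids with cholesterol, so that the fatty acids and the cholesterol cannot be told apart. Each of the 4 groups had 4 libraries, named A to D. The labels do not say whether a letter stands for a mouse, a culture or a day. The p-values measure the spread left between these libraries after treatment and letter were fitted, which may be technical.

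Peroxisomes shorten fatty acids that mitochondria handle poorly, among them very-long-chain and branched fatty acids and the side chains of bile acid precursors. A transporter in the membrane brings the acyl-CoA in, an oxidase makes the first double bond and passes the electrons to oxygen, a bifunctional enzyme adds water and oxidizes the product, and a thiolase cuts off the shortened chain. In rodent liver several of these genes are textbook targets of PPAR alpha, a nuclear receptor that binds fatty acids.

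Totals of expected counts ran from 22346049 to 35512004 per library, and a member's count in 1 library ran from 444 (*Acox3*) to 43169 (*Scp2*). Levels are given as CPM after TMM scaling (trimmed mean of M values, which balances libraries of different composition). One library stood apart: lipid + itaconate replicate B differed from the other libraries of its group by 106 to 147 times counting noise (chi-square per gene), against 10.0 to 64.5 for the 21 other pairs within groups. Many of the member results that rest on this library are therefore given with and without it. Medians and most counts of gene lists and markers are given with it only. The hepatocyte label was checked on 12 markers, all of which passed the filter. Their summed level was 42877 to 57985 CPM without treatment, 43216 to 58482 CPM with itaconate, 37942 to 49176 CPM with lipid and 33739 to 54195 CPM with both. Macrophage markers (9 of 11 passed the filter) summed to 457 to 681 CPM, stellate cell markers (1 of 9) to 16.2 to 25.6 CPM and endothelial markers (6 of 8) to 12.9 to 26.5 CPM over the 16 libraries. Of the 6 cholangiocyte markers 2 passed the filter, *Spp1* and *Sox9*, and *Cftr* was at 0 in all 16 libraries.

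In untreated hepatocytes the members spanned a wide range of levels per kb of their longest coding transcript. *Scp2* was the highest at 421 ± 33.2 CPM per kb (SD, n = 4), followed by *Acaa1b* (198 ± 18.5), *Acaa1a* (50.2 ± 4.81), *Hsd17b4* (38.0 ± 0.950), *Abcd3* (27.7 ± 1.83), *Ehhadh* (24.7 ± 2.02), *Acox2* (23.8 ± 1.38) and *Acox3* (6.26 ± 0.461). The ranges of *Abcd3* and *Ehhadh* overlapped, as did those of *Ehhadh* and *Acox2*, and the other neighbours in this order did not overlap. With all annotated exons as the length, *Acaa1a* moved from rank 3 to rank 5 and *Abcd3* from rank 5 to rank 7, so that the order of the middle members depends on the gene model, while *Scp2*, *Acaa1b* and *Acox3* kept ranks 1, 2 and 8. In lipid-treated hepatocytes *Ehhadh* (14.4 ± 1.68 CPM per kb) and *Acox2* (12.6 ± 0.545) stood below *Abcd3* (27.4 ± 1.27) without overlap, by the longest coding transcript. With all annotated exons as the length, the lipid means were 14.5 for *Abcd3*, 14.4 for *Ehhadh* and 9.90 for *Acox2*. The gap between *Abcd3* and *Ehhadh* thus depends on the gene model too.

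The first question was how the pathway responded to lipid. Lipid lowered 5 of the 8 members and raised none at an adjusted p under 0.05 (edgeR's quasi-likelihood test, Benjamini-Hochberg adjustment over all genes tested). *Acox2* and *Ehhadh* fell the most, to 0.530-fold and 0.580-fold of the untreated level, *Acaa1b* fell to 0.729-fold, and *Acox3* and *Acaa1a* fell by less. Over all genes tested 47.5% passed in either direction, 23.7% lower and 23.8% higher, so that calls were common in this comparison. For the 8 members the median of the log2 fold changes was −0.21, beside 0.00 for all genes. Where both groups held itaconate, lipid again lowered 5 of the 8 members and raised none, against a background of 47% of genes in either direction, 23.5% lower and 23.5% higher. The members' median log2 fold change was then −0.19, beside 0.00 for all genes. The called members in this second comparison were *Acox2*, *Ehhadh*, *Acaa1b*, *Acaa1a* and *Scp2*.

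**Figure D1:**
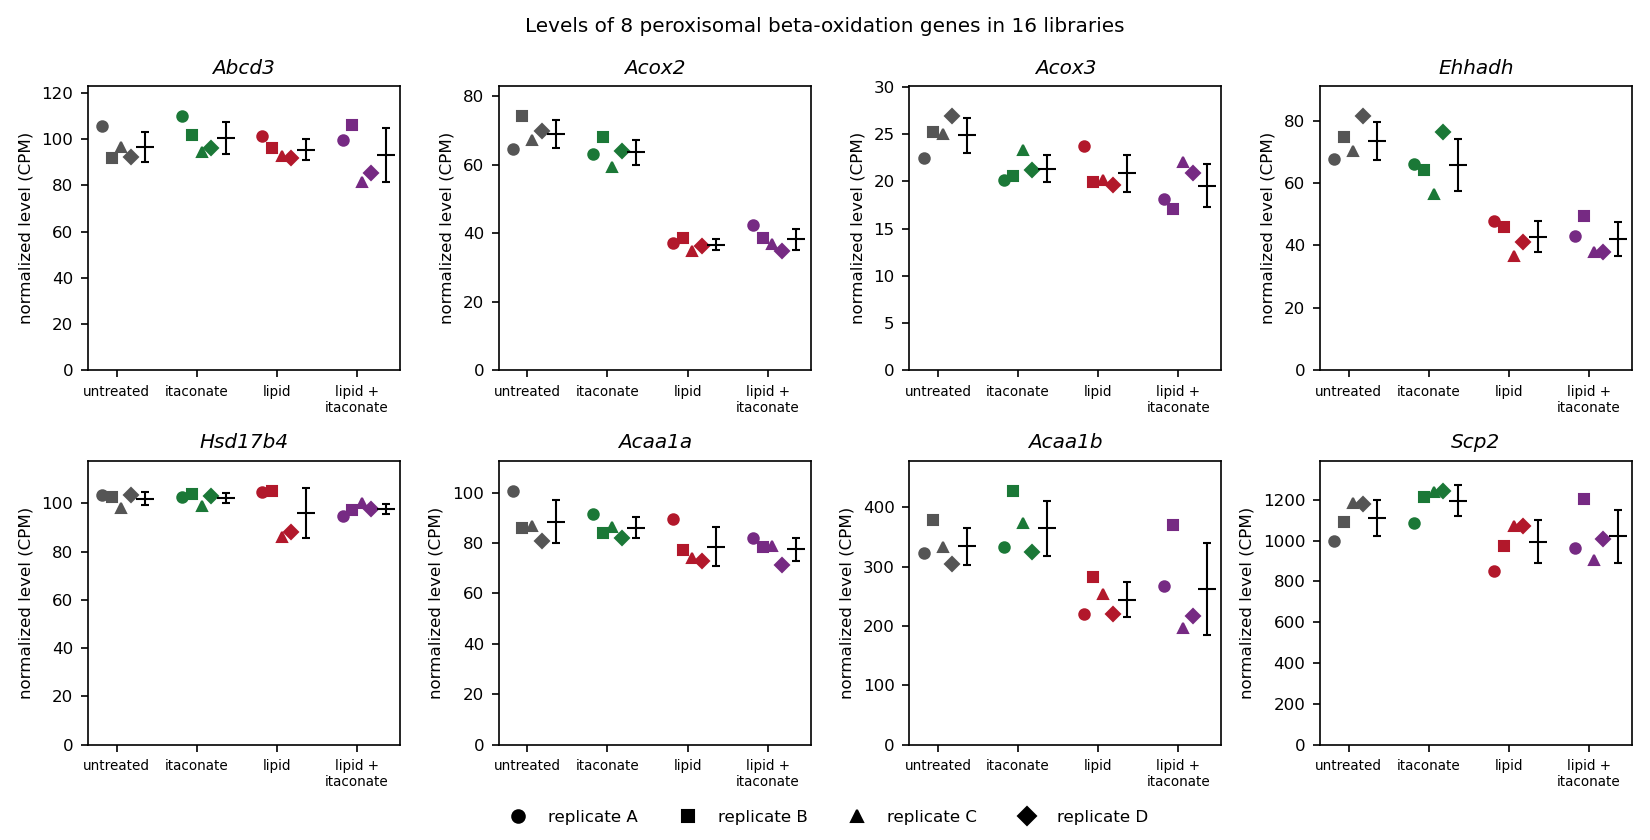
Each panel plots the normalized level of 1 gene in CPM (vertical axis, from 0) in the 16 libraries by treatment. Symbols mark replicates A to D and the black bar is the group mean with its SD (n = 4). The lipid-treated libraries of *Acox2* (34.7 to 38.5 CPM) and *Ehhadh* (36.6 to 47.7 CPM) lie below all untreated ones, while those of *Abcd3* overlap.

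Markers of cell types were counted in the same comparisons. Beside them, 23.7% of all genes tested fell and 23.8% rose with lipid, and 23.5% fell and 23.5% rose with itaconate present. Lipid against untreated, 3 of the 12 hepatocyte markers fell and 1 rose (median log2 fold change −0.18), 5 of the 9 macrophage markers tested fell and 1 rose (median −0.31), and both cholangiocyte markers tested fell. Of the 6 endothelial markers tested 1 fell and 1 rose (median 0.18), and the 1 stellate cell marker tested was not called (−0.20). The summed cholangiocyte markers were at 599 to 1169 CPM in untreated and at 335 to 608 CPM in lipid-treated hepatocytes. Lipid + itaconate against itaconate, 6 of the 12 hepatocyte markers fell and 1 rose (median −0.18), and 7 of the 9 macrophage markers fell and 1 rose (median −0.87). Both cholangiocyte markers tested fell there too (median −0.53), as did the 1 stellate cell marker tested (−0.23). Of the 6 endothelial markers 1 fell there and 0 rose, yet their median was 0.15. The summed macrophage markers did not fall as the medians of the macrophage markers did. They were at 541 to 638 CPM in untreated and at 515 to 681 CPM in lipid-treated hepatocytes. With itaconate they were at 457 to 588 CPM, and with lipid + itaconate at 544 to 621 CPM. The part of all these markers in the members' changes was not tested. In bulk RNA fewer cells of a type and less RNA per cell cannot be told apart.

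Fatty acid import is represented by *Abcd3* (ENSMUSG00000028127.10, GRCm38 chromosome 3, 121758774 to 121815302), which encodes a transporter of the peroxisomal membrane for branched and other acyl-CoAs and bile acid precursors. It ranged from 92.1 to 106 CPM without treatment, 94.6 to 110 CPM with itaconate, 91.8 to 102 CPM with lipid and 81.6 to 106 CPM with both, and all 4 ranges overlapped. The log2 fold change with lipid was −0.02 (95% confidence interval −0.13 to 0.10, adjusted p = 0.823, edgeR). With itaconate present it was −0.11 (−0.23 to 0.00, adjusted p = 0.0986). Without lipid + itaconate replicate B, which held the highest *Abcd3* level of its group, the latter became −0.19 ± 0.045 (SE) with an adjusted p of 0.00320, so that this call depended on 1 library.

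Of the acyl-CoA oxidases, *Acox2* (ENSMUSG00000021751.13, GRCm38 chromosome 14, 8225511 to 8259353) encodes the enzyme for branched acyl-CoAs and bile acid intermediates. It was at 64.7, 74.2, 67.3 and 70.0 CPM in untreated replicates A to D and at 37.1, 38.5, 34.7 and 36.3 CPM in lipid-treated ones. It was at 63.1, 68.0, 59.3 and 64.1 CPM with itaconate and at 42.4, 38.7, 36.7 and 34.9 CPM with lipid + itaconate. Every library with lipid lay below every library without it. *Acox2* fell by 0.92 ± 0.053 (SE) on the log2 scale with lipid (adjusted p = 8.59e-09, edgeR) and by 0.74 ± 0.053 with itaconate present (adjusted p = 1.07e-07). Without lipid + itaconate replicate B the second value was −0.72 ± 0.058 (adjusted p = 4.03e-07).

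*Acox3* (ENSMUSG00000029098.17, GRCm38 chromosome 5, 35583040 to 35615352) encodes another oxidase for branched acyl-CoAs and was the least abundant member. It was at 22.5, 25.2, 25.0 and 26.9 CPM in untreated replicates A to D, at 20.2, 20.6, 23.3 and 21.3 CPM with itaconate, at 23.8, 19.9, 20.2 and 19.6 CPM with lipid and at 18.2, 17.1, 22.0 and 20.9 CPM with both. The untreated group had the highest mean, and itaconate replicate C and lipid replicate A reached into its range. *Acox3* fell by 0.25 ± 0.085 on the log2 scale with lipid (adjusted p = 0.0222, edgeR), lower in 3 of 4 letters. The call was lost without untreated replicate B or D or lipid replicate C or D (adjusted p = 0.0823, 0.0834, 0.0811 and 0.0946). With itaconate present the log2 fold change was −0.13 (95% confidence interval −0.31 to 0.05, adjusted p = 0.227), and without lipid + itaconate replicate B −0.08 (−0.27 to 0.11).

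The next step has a pair of enzymes. *Ehhadh* (ENSMUSG00000022853.7, GRCm38 chromosome 16, 21761287 to 21787807) encodes the bifunctional hydratase and dehydrogenase known as L-bifunctional protein, a classic PPAR alpha target. It was at 67.6, 74.7, 70.3 and 81.4 CPM in untreated replicates A to D and at 47.7, 45.8, 36.6 and 41.0 CPM with lipid. It was at 66.0, 64.3, 56.4 and 76.5 CPM with itaconate and at 43.1, 49.3, 37.8 and 37.8 CPM with lipid + itaconate. As for *Acox2*, no library with lipid reached the lowest library without it. *Ehhadh* fell by 0.79 ± 0.085 on the log2 scale with lipid (adjusted p = 2.83e-06, edgeR) and by 0.65 ± 0.084 with itaconate present (adjusted p = 2.09e-05). Without lipid + itaconate replicate B the latter was −0.72 ± 0.086 (adjusted p = 1.24e-05).

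*Hsd17b4* (ENSMUSG00000024507.6) encodes D-bifunctional protein, which handles straight and branched chains and bile acid intermediates. It lay between 98.2 and 104 CPM without treatment, between 99.0 and 104 CPM with itaconate, between 86.2 and 105 CPM with lipid and between 95.0 and 100 CPM with both. Replicates C (86.2 CPM) and D (88.2 CPM) of lipid were the lowest of all 16, while A and B of that group were the highest. The log2 fold change was −0.09 with lipid (95% confidence interval −0.20 to 0.03, adjusted p = 0.187, edgeR) and −0.07 with itaconate present (−0.18 to 0.05, adjusted p = 0.336). Without lipid + itaconate replicate B the latter was −0.05 (−0.18 to 0.08, adjusted p = 0.526). These intervals leave out a fall of the size seen for *Ehhadh*.

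The thiolases are *Acaa1a* (ENSMUSG00000036138.16) and *Acaa1b* (ENSMUSG00000010651.4), near-identical neighbours on chromosome 9 that encode peroxisomal 3-ketoacyl-CoA thiolases, and *Scp2* (ENSMUSG00000028603.15), which encodes a thiolase for branched chains and, from an alternative start, a lipid transfer protein. In GRCm38 *Acaa1a* lies at 119339676 to 119350299 and *Acaa1b* at 119148023 to 119157093. Reads that fit both were shared out by RSEM, and both genes had counts that were not whole in all 16 libraries. So had *Scp2*, whose processed copy *Scp2-ps2* was given 0.494 to 0.698% of the count of *Scp2*. The other 5 members had whole counts in every library. The counts are per gene, so that for *Scp2* the thiolase and the lipid transfer protein cannot be told apart. The coding sequences of *Acaa1a* and *Acaa1b* (transcripts Acaa1a-201 and Acaa1b-201, GENCODE M21) have the same length of 1272 bases and differ at 44 of them (96.5% identity), with a run of 327 bases without a difference. Coding exon 8 of 12, bases 627 to 817 of the coding sequence, the longest coding exon of both, is shown because it makes plain how few positions can tell their reads apart. It spans chr9:119348581-119348771 on the plus strand for *Acaa1a* and chr9:119149600-119149790 on the minus strand for *Acaa1b*, and capitals mark the 4 bases that differ between them.
Acaa1a: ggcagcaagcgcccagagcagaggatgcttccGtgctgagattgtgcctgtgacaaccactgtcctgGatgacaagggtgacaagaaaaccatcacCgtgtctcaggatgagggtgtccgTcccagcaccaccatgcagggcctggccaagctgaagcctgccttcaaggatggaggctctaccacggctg
Acaa1b: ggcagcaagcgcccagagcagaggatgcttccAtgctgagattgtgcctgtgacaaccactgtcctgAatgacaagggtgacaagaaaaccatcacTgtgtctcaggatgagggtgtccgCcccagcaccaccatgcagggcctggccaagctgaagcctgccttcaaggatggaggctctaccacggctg

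*Acaa1b* was at 323, 378, 333 and 304 CPM in untreated replicates A to D and at 220, 282, 254 and 221 CPM with lipid, and the groups did not overlap. It was at 332, 427, 373 and 325 CPM with itaconate and at 268, 371, 197 and 217 CPM with lipid + itaconate, where replicate B (371 CPM) lay among the itaconate-treated libraries and the other 3 lay below them. *Acaa1b* fell by 0.46 ± 0.094 on the log2 scale with lipid (adjusted p = 0.000971, edgeR) and by 0.49 ± 0.094 with itaconate present (adjusted p = 0.000603). Without lipid + itaconate replicate B the latter was −0.61 ± 0.082 (adjusted p = 3.69e-05).

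*Acaa1a* was at 101, 85.8, 86.7 and 80.7 CPM in untreated replicates A to D and at 89.7, 77.4, 74.0 and 72.7 CPM with lipid, lower in every letter although the groups overlapped. With itaconate it was at 91.7, 83.9, 86.2 and 82.1 CPM and with lipid + itaconate at 81.8, 78.5, 78.8 and 71.1 CPM, and these groups did not overlap. It fell by 0.17 ± 0.043 on the log2 scale with lipid (adjusted p = 0.00364, edgeR) and by 0.15 ± 0.043 with itaconate present (adjusted p = 0.00916). Both calls were lost in a model without the replicate letter (adjusted p = 0.0823 and 0.135). The second was −0.17 ± 0.048 without lipid + itaconate replicate B (adjusted p = 0.00958).

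*Scp2* (GRCm38 chromosome 4, 108043839 to 108144998) was at 998, 1089, 1182 and 1180 CPM in untreated replicates A to D and at 852, 976, 1073 and 1074 CPM with lipid. Each letter was lower with lipid, yet the groups overlapped. The log2 fold change with lipid was −0.16 (95% confidence interval −0.32 to −0.01), which missed the threshold after adjustment (adjusted p = 0.0680, edgeR) and passed in DESeq2 (adjusted p = 0.0325). It also passed with no filter (adjusted p = 0.0147), with only the 8 libraries compared (0.00704) and without untreated replicate B (0.0484), lipid replicate C (0.0433) or lipid + itaconate replicate B or C (0.0216 and 0.0165). With itaconate *Scp2* was at 1084, 1216, 1240 and 1242 CPM and with lipid + itaconate at 966, 1205, 904 and 1010 CPM. It fell by 0.23 ± 0.071 with itaconate present (adjusted p = 0.0165). That call was lost without the replicate letter (adjusted p = 0.0696) and without lipid + itaconate replicate C or D (adjusted p = 0.0570 and 0.0677), and the value was −0.32 ± 0.060 without replicate B (adjusted p = 0.000584).

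**Figure D2:**
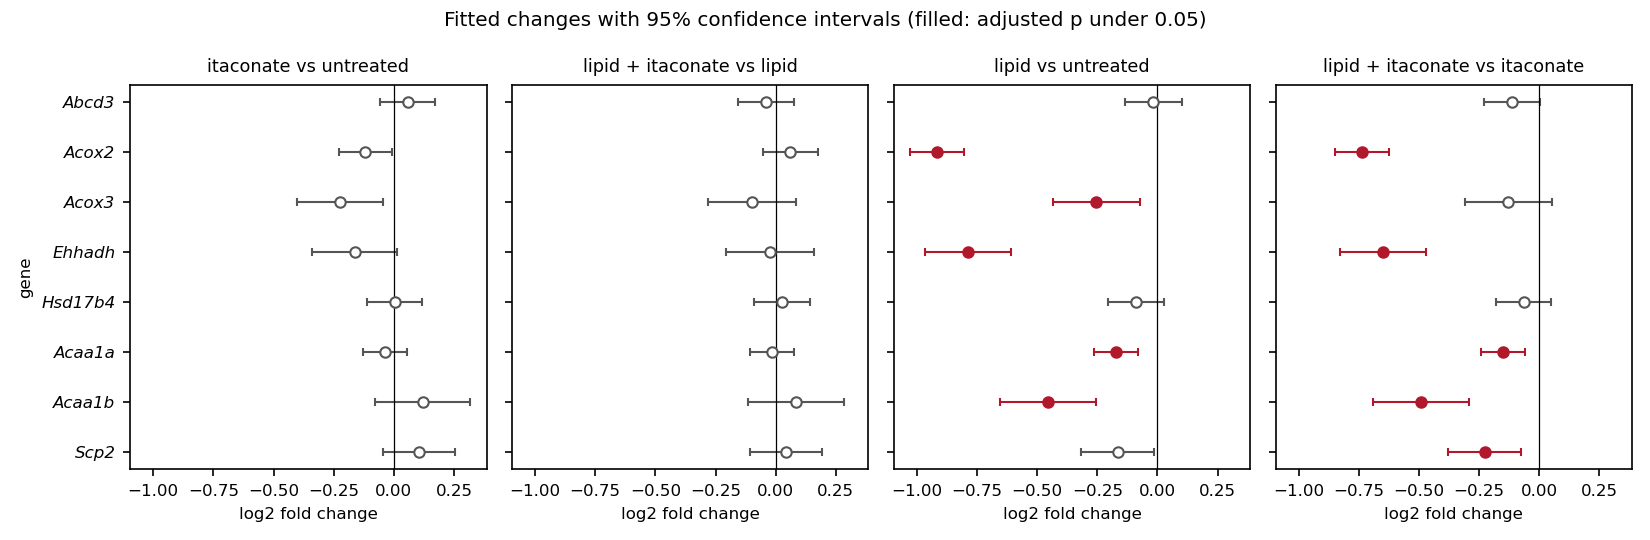
The 4 panels show the log2 fold change of each member (horizontal axis) in 1 comparison with its 95% confidence interval, and filled red points passed an adjusted p of 0.05. Points in the 2 itaconate panels lie within −0.22 and 0.12, while *Acox2* and *Ehhadh* lie at −0.92 and −0.79 in lipid against untreated.

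Promoters were looked at because *Acox2*, *Ehhadh* and *Acaa1b* were the members that fell the most with lipid. RefSeq start sites (GRCm38.p6) were at hand for 7 of the 8 members, all but *Hsd17b4*, with 9 promoters in all. The letters searched were AGGTCA, the half-site of nuclear receptors, AGGTCANAGGTCA, a pair of them spaced by 1 base as in the element bound by PPAR alpha, and CCAAT, each on both strands in the 250 bases before the start. A match of the pair is also a match of the half-site. The pair was in none of the members' promoters and in 0.0335% of 32851 mouse promoters. An exact sequence this rare is absent from nearly all promoters. Looser spellings and bases further upstream were not searched, so that no conclusion on PPAR alpha binding is drawn from its absence. The half-site was in that of *Scp2* alone of the 7, and in 14% of all. CCAAT was in 4 of the 9 promoters, those of *Acaa1a*, *Acaa1b* and *Ehhadh* and the more downstream of the 2 of *Acox2*, and in 33.8% of all. In both *Ehhadh* (chr16:21787835-21788084, minus strand) and *Acaa1b* (chr9:119157094-119157343, minus strand) a match on the opposite strand began 38 bases before the start, and *Acaa1b* had another at 185 bases. The match of *Acox2* began 36 bases before the start, in a stretch whose 250 bases all lie in exons annotated for *Acox2* itself, and that stretch is not printed. *Acaa1a*, which fell by less with lipid, had the most matches, at 199, 122 and 107 bases. Of its 250 bases 113 lie in its own annotated exons, and it is not printed either. These matches are descriptions of the sequence. Capitals mark CCAAT or its reverse complement, and each sequence runs 5′ to 3′ on the strand of its gene up to the base before the start.
Ehhadh: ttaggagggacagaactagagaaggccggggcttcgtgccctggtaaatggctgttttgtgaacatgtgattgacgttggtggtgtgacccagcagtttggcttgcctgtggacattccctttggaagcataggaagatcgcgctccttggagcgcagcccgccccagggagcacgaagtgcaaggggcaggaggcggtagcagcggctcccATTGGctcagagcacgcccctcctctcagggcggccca
Acaa1b: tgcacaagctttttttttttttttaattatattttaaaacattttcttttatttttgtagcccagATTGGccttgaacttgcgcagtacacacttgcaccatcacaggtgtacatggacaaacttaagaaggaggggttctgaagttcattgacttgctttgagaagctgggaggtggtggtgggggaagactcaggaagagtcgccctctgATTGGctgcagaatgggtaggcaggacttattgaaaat

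The second question was whether itaconate moved the pathway. Itaconate against untreated, none of the 8 members passed the adjusted threshold in edgeR, where 4.91% of all genes did, and none passed in DESeq2 or limma. At an unadjusted p under 0.05 there were 2, *Acox3* and *Acox2*. The log2 fold change of *Acox3* was −0.22 (95% confidence interval −0.40 to −0.04, adjusted p = 0.136) and that of *Acox2* −0.12 (−0.23 to −0.01, adjusted p = 0.198), each lower in 4 of 4 letters. *Ehhadh* was at −0.16 (−0.34 to 0.01, adjusted p = 0.267), also lower in 4 of 4. *Acaa1b* (0.12, −0.08 to 0.32) and *Scp2* (0.10, −0.05 to 0.26) were higher in 4 of 4 letters, with adjusted p = 0.480 and 0.419. *Abcd3* (0.06, −0.06 to 0.17), *Hsd17b4* (0.00, −0.11 to 0.12) and *Acaa1a* (−0.04, −0.13 to 0.05) were near 0. When the model held only the 8 libraries compared, 4 members passed (*Acox3* 0.0195, *Ehhadh* 0.0337, *Acaa1b* 0.0259 and *Scp2* 0.0446, adjusted p), and 1859 of 11675 genes did in place of 573.

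In the presence of lipid, no member passed the threshold for itaconate in edgeR, DESeq2 or limma, none had an unadjusted p under 0.05, and the background was 2.58%. The log2 fold changes ran from −0.10 (*Acox3*, 95% confidence interval −0.28 to 0.08) to 0.08 (*Acaa1b*, −0.12 to 0.28), and the 8 intervals together spanned −0.28 to 0.28. Those of *Acaa1b* and *Scp2* (0.04, −0.11 to 0.19) turned to −0.03 (−0.21 to 0.14) and −0.05 (−0.17 to 0.08) without lipid + itaconate replicate B. *Abcd3* was at −0.04 (−0.16 to 0.08) with that library and at −0.12 (−0.21 to −0.02, adjusted p = 0.225) without it.

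Whether lipid acted differently with and without itaconate was tested as an interaction. No member passed in edgeR, DESeq2 or limma, and 0.00857% of all genes did, which was 1 gene. *Acox2* had the only unadjusted p under 0.05, with a log2 difference of 0.18 (95% confidence interval 0.02 to 0.34, adjusted p = 0.527), its fall with lipid being smaller in the presence of itaconate in 4 of 4 letters. For *Ehhadh* the difference was 0.14 (−0.11 to 0.39), for *Acaa1b* −0.04 (−0.32 to 0.25), for *Scp2* −0.06 (−0.27 to 0.15) and for *Abcd3* −0.10 (−0.26 to 0.07). Without lipid + itaconate replicate B the values were 0.20 (0.03 to 0.36) for *Acox2*, 0.06 (−0.19 to 0.30) for *Ehhadh*, −0.16 (−0.39 to 0.08) for *Acaa1b*, −0.16 (−0.33 to 0.01) for *Scp2* and −0.18 (−0.31 to −0.05) for *Abcd3*. None of these passed after adjustment, the smallest adjusted p among them being 0.286.

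Members that act at the same step did not all move alike, which the ratios within a library show without regard to library scaling. The pairs were formed with the changes above known, and their ratios are given as descriptions without a test. The ratio of *Ehhadh* to *Hsd17b4* was 0.721 ± 0.0544 in untreated and 0.445 ± 0.0187 in lipid-treated hepatocytes, and 0.644 ± 0.0731 with itaconate and 0.431 ± 0.0610 with lipid + itaconate (SD, n = 4). The ratio of *Acox2* to *Acox3* was 2.78 ± 0.157 in untreated, 1.77 ± 0.162 with lipid, 3.00 ± 0.326 with itaconate and 1.98 ± 0.363 with both. For both pairs the libraries with lipid lay below those without it. The ratio of *Acaa1b* to *Acaa1a* was 3.81 ± 0.487 in untreated and 3.14 ± 0.525 with lipid, 4.25 ± 0.629 with itaconate and 3.39 ± 0.950 with both. These groups overlapped, yet within each letter the ratio was lower with lipid, in 4 of 4 letters without itaconate and in 4 of 4 with it.

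**Figure D3:**
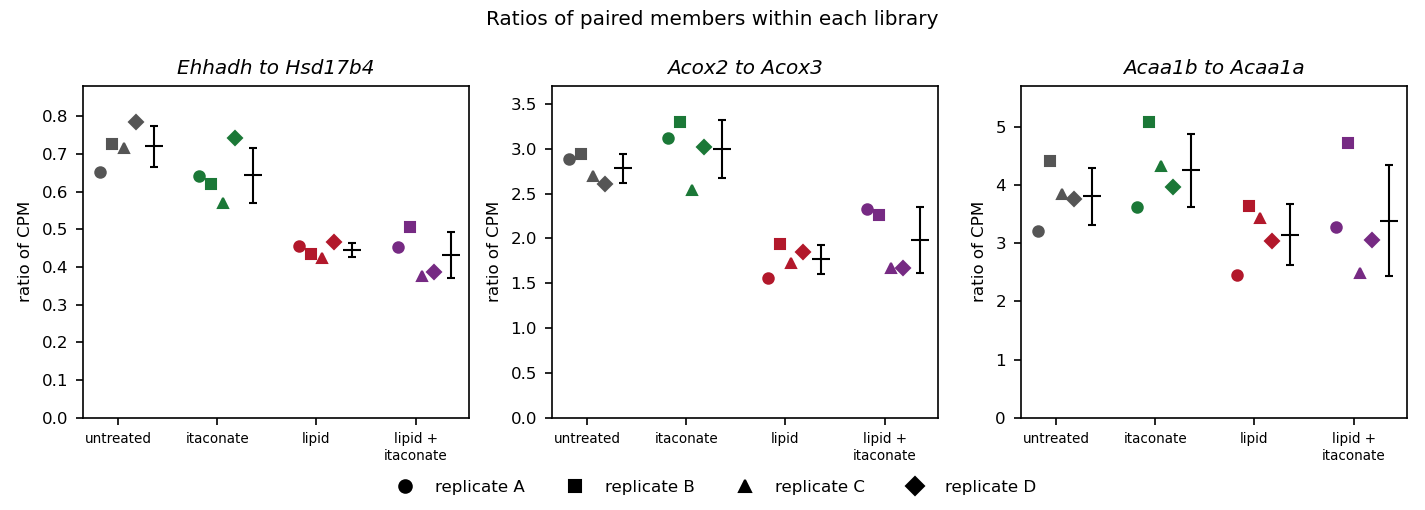
Each panel plots the ratio of the CPM of 2 members (vertical axis, from 0) in the 16 libraries by treatment, with symbols for replicates A to D and the group mean with its SD (n = 4) in black. The *Ehhadh* to *Hsd17b4* ratio is 0.654 to 0.786 in untreated and 0.424 to 0.466 in lipid-treated libraries, while the groups overlap for *Acaa1b* to *Acaa1a*, which is lower with lipid in 4 of 4 letters.

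Other genes of peroxisomal fatty acid oxidation were 27, of which 24 were tested (*Eci3*, *Acot3* and *Acot5* were under the filter). With lipid 14 fell and 3 rose, with a median log2 fold change of −0.20 beside 0.00 for all genes. Over all genes tested 23.7% fell and 23.8% rose with lipid, and 23.5% fell and 23.5% rose with itaconate present. *Idh1*, the NADPH-producing isocitrate dehydrogenase of cytosol and peroxisomes, fell by 0.69 ± 0.046 on the log2 scale (adjusted p = 2.46e-08, edgeR), and *Eci2*, an enoyl-CoA isomerase, fell by 0.46 ± 0.059 (adjusted p = 1.70e-05). *Nudt7*, a peroxisomal CoA diphosphatase, and *Decr2*, a dienoyl-CoA reductase, rose by 0.21 and 0.28 (adjusted p = 0.00635 and 0.00674). The largest fall was that of *Abcd2*, a fatty acyl-CoA transporter named here after its values were seen, by 1.37 ± 0.287 from 1.41 ± 0.261 to 0.570 ± 0.303 CPM (adjusted p = 0.00115). It was at 1.43 CPM with itaconate and 0.683 CPM with both, so it passed the filter of 1 CPM only through the groups without lipid. The filter thus favoured a fall with lipid for this gene, which is counted among the 14, and its p-value is no support. With itaconate present 13 fell and 2 rose, with a median of −0.19. *Decr2* rose by 0.27 (adjusted p = 0.00909, edgeR). Itaconate against untreated, 1 of the 24 passed, beside 4.91% of all genes. It was *Eci2*, which rose by 0.23 ± 0.058 (adjusted p = 0.0321). That call was lost when replicate A, B or D of the untreated group was left out (adjusted p = 0.0943, 0.104 and 0.0902) or replicate B, C or D of the itaconate group (0.0581, 0.160 and 0.106). With 1 library left out 0 to 3 of the 24 passed, and the 3 were reached without lipid + itaconate replicate B. In the presence of lipid none passed in edgeR, DESeq2 or limma and 5 had an unadjusted p under 0.05. Without the replicate letter in the model *Eci2* lost its call for itaconate (adjusted p = 0.151), *Nudt7* its call for lipid (0.325) and *Decr2* its calls for lipid (0.0516) and for lipid with itaconate present (0.0567).

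The 16 peroxins, which build peroxisomes and import their proteins, were spread to both sides. With lipid 6 rose and 3 fell, beside 23.8% and 23.7% of all genes, with a median log2 fold change of 0.11. *Pex13* and *Pex2* of the import machinery rose by 0.30 and 0.23 (adjusted p = 0.000431 and 0.00111, edgeR). *Pex11a*, a factor of peroxisome division and a PPAR alpha target, fell by 0.35, and *Pex7*, an import receptor, fell by 0.31 (adjusted p = 0.000498 and 0.00306). With itaconate present 5 rose and 4 fell, with a median of 0.07. Itaconate against untreated, *Pex19* fell by 0.21 (adjusted p = 0.00856) as the only 1 of 16 called, beside 4.91% of all genes. Its call was lost without itaconate replicate C (adjusted p = 0.0548), and with 1 library left out 0 to 3 of the 16 passed (2 without untreated replicate C, itaconate replicate A or B, lipid replicate A or D or lipid + itaconate replicate B, and 3 without lipid + itaconate replicate C). In the presence of lipid *Pex11a* rose by 0.29 (adjusted p = 0.0342) as the only 1 called, beside 2.58% of all genes. That call was lost, with none of the 16 left, without untreated replicate A (adjusted p = 0.0508), lipid replicate B, C or D (0.0568, 0.0885 and 0.124) or lipid + itaconate replicate A, B or D (0.127, 0.108 and 0.0553), and with only the 8 libraries compared (0.124). Without the replicate letter both calls were lost too (adjusted p = 0.106 for *Pex19* and 0.427 for *Pex11a*).

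Mitochondrial beta-oxidation, the parallel pathway for common fatty acids, had 17 genes, and 11 fell and 2 rose with lipid (median log2 fold change −0.20). Over all genes tested 23.7% fell and 23.8% rose. *Acadl* and *Hadha*, for long chains, fell by 0.49 and 0.33 (adjusted p = 1.70e-06 and 3.11e-05, edgeR), while *Acads* and *Acadm*, for short and medium chains, rose by 0.18 and 0.16 (adjusted p = 0.00370 and 0.00893), calls that were lost without the replicate letter (adjusted p = 0.0835 and 0.105). With itaconate present 12 fell and 1 rose (median −0.23). Neither itaconate comparison called any of the 17 in edgeR, DESeq2 or limma, and at an unadjusted p under 0.05 there were 2 without lipid and 0 with it. PPAR alpha targets outside the peroxisome were 17, of which 16 were tested (*Fgf21* was under the filter), and 8 fell and 2 rose with lipid (median −0.29). *Pdk4*, which restrains pyruvate dehydrogenase, fell by 1.34 ± 0.087 and *Angptl4*, an inhibitor of lipoprotein lipase, fell by 1.02 ± 0.072 (adjusted p = 1.58e-08 and 4.47e-08). *Creb3l3*, a liver transcription factor, rose by 1.06 ± 0.036 (adjusted p = 3.10e-11), and *Cidec*, a lipid droplet protein, rose by 0.34 (adjusted p = 0.0390), a call lost without any 1 of the 4 untreated libraries (adjusted p = 0.0553 to 0.0866) or lipid replicate C or D (0.188 and 0.101), in DESeq2 (0.0507) and without the replicate letter (0.170). With itaconate present 9 fell and 2 rose (median −0.25). In the presence of lipid itaconate raised *Pdk4* by 0.47 (adjusted p = 0.0122) and lowered *Creb3l3* by 0.40 (adjusted p = 6.77e-05), and without lipid it lowered *Creb3l3* by 0.29 (adjusted p = 0.000343). The call of *Pdk4* was lost without lipid + itaconate replicate A (adjusted p = 0.0569) and with only the 8 libraries compared (0.125), and without the replicate letter all 3 calls were lost (adjusted p = 0.276, 0.120 and 0.178). With lipid the members' median of −0.21 stood beside −0.20 for the other peroxisomal and the mitochondrial genes and −0.18 for the hepatocyte markers.

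**Figure D4:**
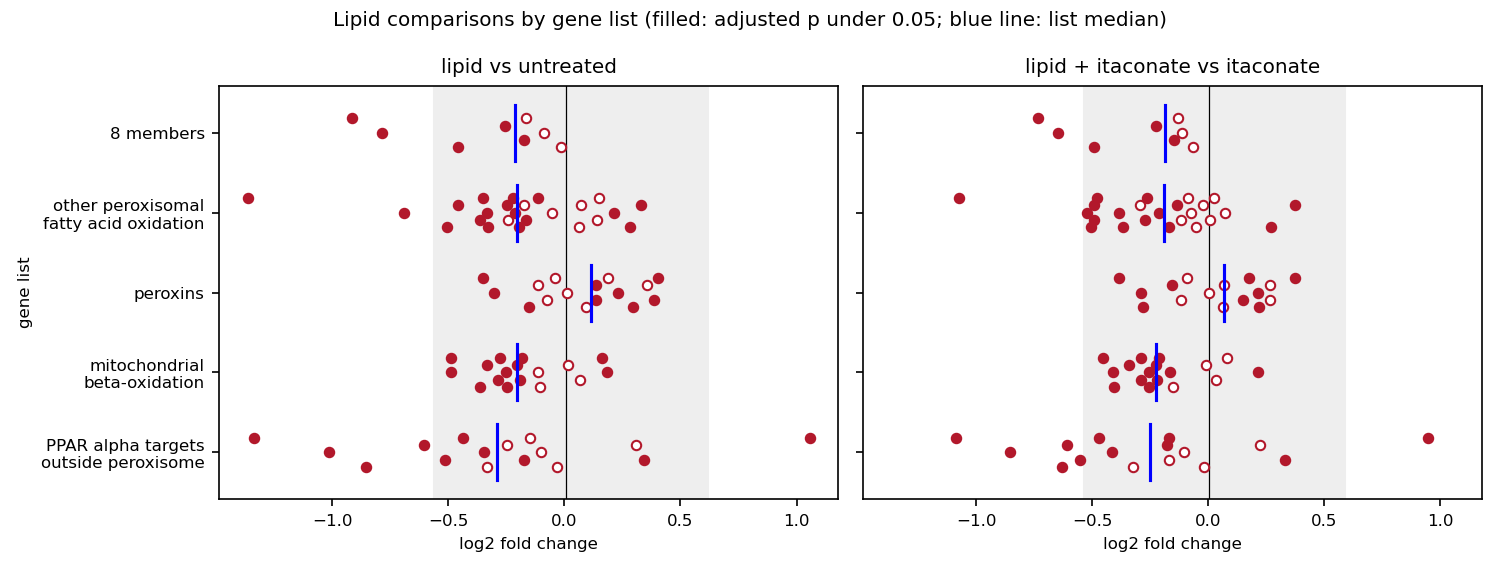
The log2 fold change of each tested gene (horizontal axis) is plotted by list for lipid against untreated and for lipid + itaconate against itaconate, with filled points for an adjusted p under 0.05, a blue line at the list median and a grey band from the 5th to the 95th percentile of all genes. The median is −0.21 for the 8 members and 0.11 for the peroxins in the left panel.

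The genes whose levels ran most like those of each member over the 16 libraries were found by Pearson's correlation of log2 CPM among 9320 candidate genes whose mean reached 5 CPM. They are a description without a test, since libraries with and without lipid form separate clusters for *Acox2* and *Ehhadh*. *Acox2* ran most like *Insig1* (r = 0.988), *Wsb2* (0.978) and *Angptl4* (0.974). *Ehhadh* ran most like *Idh1* (r = 0.955), *Acox2* (0.951) and *Mut* (0.949). *Acaa1b* ran most like *Rgn* (r = 0.962), *Mgst1* (0.961) and *Dbi* (0.954). *Scp2* ran most like *Nup88* (r = 0.945), *Mfsd14a* (0.938) and *Selenoi* (0.935), and *Abcd3* like *Hadh* (0.946), *Serpinc1* (0.927) and *Fbp1* (0.921). *Acaa1a* ran most like *Spp1* (r = 0.922), *Slc38a4* (0.902) and *Hpn* (0.890). *Acox3* ran most like *Secisbp2* (r = 0.900), *Clcf1* (0.891) and *Aen* (0.877), and *Hsd17b4* like *Nek6* (0.914), *Nat8f2* (0.880) and *Mocs1* (0.858). For *Hsd17b4* Spearman's rho was lower, at 0.685 for *Nek6*, 0.812 for *Nat8f2* and 0.544 for *Mocs1*.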

How the data were processed

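Gene-level expected counts from RSEM were deposited by the authors, without normalization, for 16 libraries of stranded, mRNA-captured RNA. The submitters' processing notes name the build mm10 and bcl2fastq 2.20, cutadapt 1.18, STAR 2.7.0f, Picard 2.18.26 and RSEM 1.3.1. RSEM splits reads that match more than 1 gene, so its counts need not be whole. They were rounded, and edgeR 4.0.16 under R 4.3.3 was run with TMM scaling and its quasi-likelihood test. One model of the 16 libraries held terms for treatment and for replicate letter. The 11675 genes averaging 1 CPM or more were tested, p-values were adjusted over them by Benjamini-Hochberg, and an adjusted p under 0.05 was called. Log2 CPM used a prior count of 0.5. Positions and lengths are from GENCODE M21 (GRCm38). Totals were 22346049 to 35512004 counts per library, and intervals are 95% confidence intervals of the fit. The letters were kept in the model because all 24 same-letter pairs of libraries deviated together from their group means (correlations 0.144 to 0.469, median 0.263, threshold 0.1). The 72 pairs with other letters ran from −0.436 to 0.178 (median −0.114), so that the ranges overlapped. Deviations from a group mean sum to 0 over its letters, which pushes these values below 0, so they are not separate support. Letters stand in the labels without an explanation.

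The members and lists were chosen with earlier results of these data known. The lists come from general knowledge of the pathways, not a database. Genes named are the 8 members, of each list the 2 genes with the smallest p per direction and comparison among those called, and the 3 genes best correlated with each member, with a symbol of their own. Some genes under this rule are not reported here. Alternatives were a model without the letter, RLE scaling, the filterByExpr filter, no filter, DESeq2 1.42.0, limma-trend (limma 3.58.1), only the 8 libraries compared, *Acaa1a* and *Acaa1b* summed, and each library left out in turn. Scripts were tested on simulated data. The authors' normalization, batch removal and tests came after these counts and were not used here.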

Additional observations from a re-analysis of the deposited data

Results flagged for a closer look

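Of 44 sets of 4 libraries checked for a single library far from the others (8 members and 3 ratios in each of the 4 groups, Dixon's 95% critical value), 3 were past it, where chance gives about 1 in 20. *Acox3* was at 23.8 CPM in lipid replicate A, above the 19.6 to 20.2 CPM of the other 3. *Hsd17b4* was at 98.2 CPM in untreated replicate C, below the 103 to 104 CPM of the other 3. *Scp2* was at 1084 CPM in itaconate replicate A, below the 1216 to 1242 CPM of the other 3.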

How the results depend on the processing

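Over 922 alternatives to the 40 member results (8 members in 5 comparisons), 870 kept their direction and side of the threshold, 9 lost a call, 12 gained one and 31 changed sign. *Acox2*, *Ehhadh* and *Acaa1b* kept their calls in both lipid comparisons under every alternative run. Most alternatives left out 1 of the 16 libraries, in many cases a library outside the groups compared. The 922 are therefore not separate checks, and the share kept does not measure robustness. Without the replicate block (the letter), 3 members were called in lipid + itaconate against itaconate in place of 5 (*Acaa1a* and *Scp2* were lost) and 4 in lipid against untreated (*Acaa1a* was lost), and no other member call changed. With only the 8 libraries compared, 4 members were called in itaconate against untreated in place of 0. The cause was not tested. With *Acaa1a* and *Acaa1b* summed, the sum was at 0.093 in itaconate against untreated, 0.056 in lipid + itaconate against lipid and −0.037 in the interaction, where *Acaa1a* alone had the opposite sign. With 1 library left out, log2 values changed sign only in results that were not called. Their ranges were from −0.012 to 0.022 for *Hsd17b4* in itaconate against untreated and from −0.065 to 0.020 for *Abcd3* in lipid against untreated. In lipid + itaconate against lipid they were from −0.0078 to 0.10 for *Acox2*, from −0.15 to 0.0059 for *Acox3*, from −0.10 to 0.055 for *Ehhadh*, from −0.017 to 0.071 for *Hsd17b4*, from −0.041 to 0.012 for *Acaa1a*, from −0.033 to 0.21 for *Acaa1b*, from −0.048 to 0.13 for *Scp2* and from −0.12 to 0.0053 for *Abcd3*. In the interaction they were from −0.019 to 0.068 for *Hsd17b4*, from −0.0098 to 0.050 for *Acaa1a*, from −0.16 to 0.095 for *Acaa1b* and from −0.16 to 0.021 for *Scp2*. Over all genes, the calls ran from 23 to 1859 (573 as reported) in itaconate against untreated, from 9 to 891 (301) in lipid + itaconate against lipid and from 0 to 231 (1) in the interaction. Beside the members' 95% intervals, which rest on the spread left between libraries after treatment and letter were fitted, the effect of sequencing depth was not tested.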

Other observations

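After treatment and letter were taken out of log2 CPM, *Acaa1b* and *Scp2* still varied together over the 16 libraries (Pearson's r = 0.960, Spearman's rho = 0.956), and over the 15 without lipid + itaconate replicate B (r = 0.933, rho = 0.907). *Scp2* and *Abcd3* did so too (r = 0.886 with and 0.734 without that library), as did *Acox3* and *Hsd17b4* (r = 0.731 and 0.712). Other pairs varied against each other, among them *Acox3* and *Scp2* (r = −0.699 with and −0.650 without that library), *Hsd17b4* and *Scp2* (−0.683 and −0.763), *Acox3* and *Abcd3* (−0.653 and −0.648), *Acox3* and *Acaa1b* (−0.616 and −0.510) and *Hsd17b4* and *Acaa1b* (−0.606 and −0.609). For *Acaa1a* and *Scp2* the value was −0.258 with that library and −0.766 without it. The median over the 28 pairs was 0.067 with all 16 libraries. For *Acox2* and *Ehhadh* the value was 0.427 with that library and 0.684 without it. These pairs were chosen after their values were seen, the points share library depth and composition, and no test was made.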
